A study of Homo sapiens with 6 samples.

Results

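The HOX cluster genes were examined in RNA-seq of the Ewing sarcoma lines A673 and SKNMC. They were taken as every gene with the biotype protein-coding whose symbol is HOX, a cluster letter from A to D and digits. This gave 40 of the 27420 listed genes (20311 of them protein-coding) and 39 symbols, since HOXC4 is listed under 2 identifiers (ENSG00000198353 and the shorter ENSG00000273266). Each line was kept for 6 h with DMSO, the vehicle, with 50 nM THZ1 or with 200 nM THZ1, and each of the 6 conditions has 1 library. THZ1 is a covalent inhibitor of CDK7, a kinase of the general transcription machinery, and the treatment was used to ask which transcripts of these cells depend on it. No line has a replicate of a condition, so the comparisons within a line are between single libraries and carry no test. The effect of each dose over both lines was fitted with limma and is given after the values of each line.

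HOX genes encode homeodomain transcription factors that set position along the body axis. They lie in the clusters HOXA, HOXB, HOXC and HOXD, one gene after another on the same strand. The number in a symbol is its paralogue group, low at the end of the cluster used in the head and hindbrain and high at the end used in the trunk, limbs and tail. HOX proteins bind DNA together with TALE homeodomain partners such as MEIS and PBX. Ewing sarcoma, a tumour of bone and soft tissue driven in most cases by the EWS-FLI1 fusion, is known to express HOXD genes of high number, among them HOXD13.

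On hg19, the build used for the deposited values, the listed members span chr7:27132611-27239725 for HOXA, chr17:46605887-46806540 for HOXB, chr12:54332534-54449814 for HOXC and chr2:176957618-177055688 for HOXD. HOXA and HOXB lie on the minus strand, HOXC and HOXD on the plus strand. The median span of a member was 4559.5 bp, against 25640 bp over all protein-coding genes.

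The sequences of the 5 members with the highest mean level over both DMSO libraries, all of HOXD, show what the family shares. Each run below is the homeobox, the 180 bases that code for the DNA-binding homeodomain, on the plus strand of GRCh37 in exon 2 of its gene. HOXD13 (ENSG00000128714) has it at chr2:176959252-176959431, HOXD11 (ENSG00000128713) at chr2:176973649-176973828, HOXD10 (ENSG00000128710) at chr2:176983732-176983911, HOXD8 (ENSG00000175879) at chr2:176996056-176996235 and HOXD9 (ENSG00000128709) at chr2:176988697-176988876. Capitals mark the 18 bases that code for the conserved core of the recognition helix, which lies in the major groove of DNA.
HOXD13: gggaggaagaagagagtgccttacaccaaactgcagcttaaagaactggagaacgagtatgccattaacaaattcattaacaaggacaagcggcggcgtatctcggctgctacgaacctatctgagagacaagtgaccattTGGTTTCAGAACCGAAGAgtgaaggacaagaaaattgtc
HOXD11: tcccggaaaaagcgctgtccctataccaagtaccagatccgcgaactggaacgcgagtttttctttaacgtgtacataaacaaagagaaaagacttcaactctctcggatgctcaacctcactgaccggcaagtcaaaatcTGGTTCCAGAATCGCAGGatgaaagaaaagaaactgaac
HOXD10: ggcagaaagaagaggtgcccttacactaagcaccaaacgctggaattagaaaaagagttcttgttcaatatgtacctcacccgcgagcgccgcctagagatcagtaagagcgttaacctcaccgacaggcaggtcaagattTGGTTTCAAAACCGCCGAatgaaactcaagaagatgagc
HOXD8: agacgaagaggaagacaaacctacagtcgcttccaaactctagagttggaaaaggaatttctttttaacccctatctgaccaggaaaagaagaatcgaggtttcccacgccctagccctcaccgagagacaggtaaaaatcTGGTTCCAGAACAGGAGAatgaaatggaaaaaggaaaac
HOXD9: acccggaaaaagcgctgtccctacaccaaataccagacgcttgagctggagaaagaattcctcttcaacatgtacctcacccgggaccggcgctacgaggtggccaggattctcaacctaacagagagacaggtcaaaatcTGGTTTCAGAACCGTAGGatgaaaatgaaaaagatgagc
The lowest identity among these 5 homeoboxes was 48.9%, between HOXD13 and HOXD8, and the highest was 71.7%, between HOXD10 and HOXD9. Over the coding sequences of the 24 members above 1 FPKM in a DMSO library, the longest stretch that any pair shared was 62 bases, between HOXB3 and HOXD3. All 276 pairs thus shared runs shorter than the 100-bp reads. HOXB6 and HOXB7 came next with 51 bases, and the median pair shared 14.

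The 250 bases before the RefSeq start were read for the 2 highest members, HOXD13 and HOXD11, which also moved together with THZ1 (below). Capitals mark TATAAA on either strand, the letters of a TATA box. The HOXD13 window lies at chr2:176957199-176957448 of GRCh37 and holds TATAAA on both strands, overlapping. The HOXD11 window lies at chr2:176971758-176972007, inside the longer span that the deposited values use for HOXD11, and holds no TATAAA.
HOXD13 promoter: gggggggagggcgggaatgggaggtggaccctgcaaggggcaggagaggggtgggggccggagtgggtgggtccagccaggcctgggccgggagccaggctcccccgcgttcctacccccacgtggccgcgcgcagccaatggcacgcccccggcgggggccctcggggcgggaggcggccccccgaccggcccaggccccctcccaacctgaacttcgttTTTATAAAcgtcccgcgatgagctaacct
HOXD11 promoter: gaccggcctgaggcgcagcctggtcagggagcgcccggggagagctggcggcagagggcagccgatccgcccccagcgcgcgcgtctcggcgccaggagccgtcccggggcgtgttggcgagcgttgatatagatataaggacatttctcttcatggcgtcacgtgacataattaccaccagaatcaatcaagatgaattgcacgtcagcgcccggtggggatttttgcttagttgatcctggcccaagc
A RefSeq promoter window on GRCh38 was at hand for 20 of the 39 HOX symbols, with 27 windows. TATAAA was found on either strand in 5 of the 27 windows (18.5%), of HOXA3, HOXA9, HOXA10 and HOXD13, and in 11.5% of 35116 windows of all genes. GGAAGGAA, the repeat that EWS-FLI1 binds, was found in 1 of the 27, of HOXA2, and in 3.67% of all windows. The letters TGACAG, which MEIS proteins bind, were found in 4 of the 27 (14.8%) and in 15.8% of all windows. The median number of CG pairs was 22 in the HOX windows and 14 in all windows.

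Levels are given as FPKM, fragments scaled to transcript length and library, so that levels can be set side by side between genes. Depth cannot be read from FPKM, so no counting error is given. A gene was taken as expressed above 1 FPKM in the DMSO library of its line. Changes are log2 ratios of FPKM + 1, and a gene was called lower or higher when it changed at least 2-fold on that scale. The sums of the listed FPKM ran from 451872 to 462997 per library. All 13 Ewing sarcoma marker genes were expressed in both lines, among them CD99 at 504 FPKM in A673 and 313 FPKM in SKNMC with DMSO. The neuroblast markers had 1 of 5 expressed in each line, HAND2, and the epithelium markers 1 of 4. Muscle and endothelium had none in either line, but endothelium was read from CDH5 and VWF only, since PECAM1 was not listed. Of 4 blood markers, PTPRC alone passed, in SKNMC, at 10.2 FPKM.

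With DMSO, 21 of the 40 HOX genes were expressed in A673 and 23 in SKNMC, where 53.3% and 56.9% of all protein-coding genes were. They were 20 genes expressed in both lines, HOXB2 in A673 only, and HOXA10, HOXB5 and HOXB9 in SKNMC only. The clusters differed. HOXA was close to silent, with 0 of 11 genes expressed in A673 and 1 of 11 in SKNMC. HOXB had 6 and 7 of 10 expressed, HOXC 8 of 10 in each line and HOXD 7 of 9 in each line. By position, 3 and 2 of 8 genes of groups 1 to 3 were expressed, 8 and 9 of 16 of groups 4 to 8, and 10 and 12 of 16 of groups 9 to 13. The 10 HOXC entries hold 9 symbols. The short HOXC4 entry is counted as not expressed, there and in groups 4 to 8, although HOXC4 is expressed under its main identifier.

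**Figure D1:**
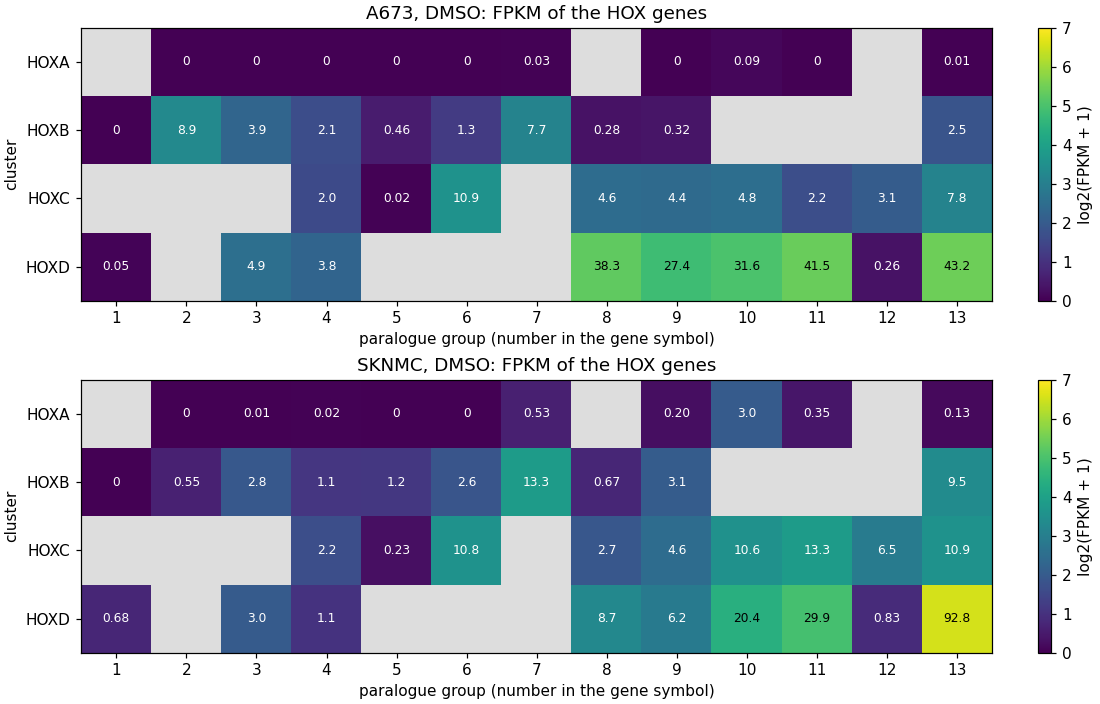
FPKM of the HOX genes with DMSO in A673 (top) and SKNMC (bottom), clusters in lines and paralogue groups 1 to 13 in columns; colour is log2(FPKM + 1), grey squares are positions with no gene or not shown, and 1 library stands behind each panel. The HOXD genes 8 to 11 and 13 are the brightest in A673, and HOXD13 in SKNMC, at 92.8 FPKM, is the highest value.

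The other 16 members stayed below 1 FPKM in all 6 libraries. Among them were HOXA2 to HOXA7, HOXA9, HOXA11, HOXA13, HOXB1, HOXB8, the short HOXC4 entry, HOXC5, HOXD1 and HOXD12, and the highest value among them was 0.863 FPKM, of HOXB8 in SKNMC with 200 nM THZ1. HOXA2, a hindbrain gene, was listed at 0 in all 6 libraries. HOXD12 lay at 0.259 FPKM in A673 and 0.830 FPKM in SKNMC with DMSO, between HOXD11 and HOXD13, the highest members of the family.

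HOXD held most of the HOX transcripts. Its genes summed to 191 of 259 FPKM in A673 (73.7%) and to 164 of 265 FPKM in SKNMC (61.7%) with DMSO. In A673 this was spread over HOXD8 to HOXD11 and HOXD13. The 5 highest members, all HOXD genes, held 70.3% of the HOX sum, and HOXD13, the highest, held 16.7%. In SKNMC, HOXD13 alone held 35.0%, and without it HOXD made up 41.0% of the remaining sum. HOXD13, at the end of the cluster and known for its part in digit formation, ranked at the 89.2 percentile of protein-coding genes in A673 and at the 95.9 percentile in SKNMC.

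The lines differed at single positions. Of the 24 HOX genes expressed in either line, 4 (16.7%) were at least 2-fold higher in A673 and 6 (25%) at least 2-fold higher in SKNMC, against 8.38% and 14.7% of 11987 protein-coding genes. HOXB2, which patterns the hindbrain, was at 8.87 FPKM in A673 and 0.555 FPKM in SKNMC, a difference of 2.67 on the log2 scale and the largest of the family. HOXD8, HOXD9 and HOXD4 were also higher in A673, by 2.02, 1.98 and 1.22 on that scale. The 6 genes higher in SKNMC were all of groups 9 to 13. HOXC11 was at 13.3 FPKM in SKNMC and 2.18 FPKM in A673, a log2 difference, A673 minus SKNMC, of -2.17. HOXA10, HOXB9, HOXB13, HOXD13 and HOXC10 followed with -1.87, -1.63, -1.58, -1.09 and -1.01.

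**Figure D2:**
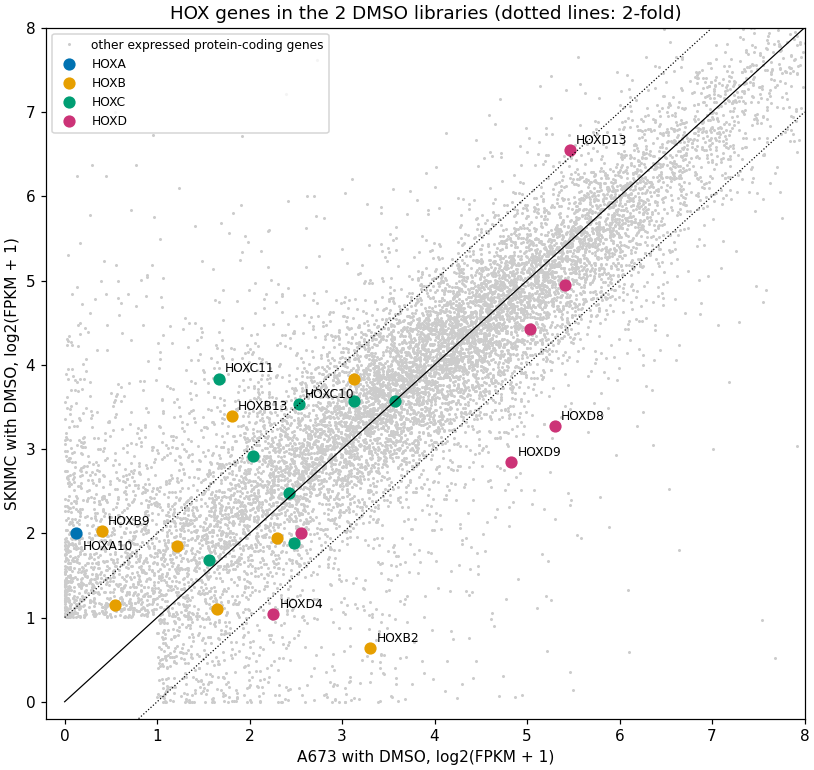
FPKM of the 24 expressed HOX genes, as log2(FPKM + 1), in A673 (x axis) and SKNMC (y axis) with DMSO, 1 library each; grey points are other protein-coding genes above 1 FPKM in either line, and genes beyond the axis ends are not drawn. The 10 named genes lie on or outside the dotted 2-fold lines, HOXB2, HOXD4, HOXD8 and HOXD9 on the A673 side and the other 6 on the SKNMC side.

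With THZ1, all called HOX genes of A673 were lower. At 50 nM, 5 of 21 expressed members were lower (23.8%, against 15.8% of all expressed protein-coding genes) and 0 were higher (against 0.305%). At 200 nM, 10 of 21 were lower (47.6%, against 25.4%) and 0 were higher (against 0.12%). The median log2 change was -0.68 at 50 nM and -0.85 at 200 nM, while that of all expressed protein-coding genes was -0.27 and -0.39. All 21 members lay below their DMSO value at 200 nM as deposited, 19 of 21 when libraries were scaled to the 75th percentile of expressed genes. The 5 lower at both doses were HOXC6, HOXC12, HOXD4, HOXD8 and HOXD13, and HOXB4, HOXC8, HOXC11, HOXC13 and HOXD11 were lower at 200 nM only. With the 75th percentile scaling, HOXD13 at 50 nM (-0.80) and HOXC8, HOXC11 and HOXB4 at 200 nM (-0.91, -0.94 and -0.81) no longer passed 2-fold. Both doses are set against the same DMSO library, so they are not independent of each other.

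In SKNMC the family moved both ways. At 50 nM, 4 of 23 expressed members were lower (17.4%, against 15.6% of all) and 2 were higher (8.7%, against 0.442%). At 200 nM, 4 were lower (against 27.6%) and 2 higher (against 0.39%). The share of lower members at 50 nM was thus close to that of all genes, and at 200 nM below it. The median log2 change was -0.22 and -0.42, above that of all expressed genes (-0.32 and -0.55), and it turned to 0.0085 and 0.011 when libraries were scaled to the 75th percentile. HOXB13 and HOXD8 were lower at both doses, HOXB3 and HOXC12 at 50 nM only, and HOXD11 and HOXD13 at 200 nM only. HOXB5 and HOXB6 were the higher ones at both doses. With the 75th percentile scaling, HOXC12 at 50 nM (-0.94) and HOXB13, HOXD8 and HOXD11 at 200 nM (-0.84, -0.95 and -0.67) no longer passed 2-fold, so that HOXD13 was the 1 member still called lower at 200 nM. Whether the lines differ in their response was not tested. A scaling multiplies the FPKM of all genes of a library alike, which moves low genes less on the scale of FPKM + 1. The 75th percentile moved the median of all genes by 0.22 and 0.32 in A673 and 0.25 and 0.47 in SKNMC, at 50 and 200 nM. Ribosomal protein genes moved it by -0.23, -0.36, -0.31 and -0.46. The HOX median minus that of all genes stayed between -0.47 and -0.41 in A673 and between 0.07 and 0.25 in SKNMC under each scaling. Since a scaling moves both medians nearly alike, this difference could hardly change and is no check of the contrast. In bulk RNA, less transcript per cell and fewer cells with the transcript cannot be told apart.

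**Figure D3:**
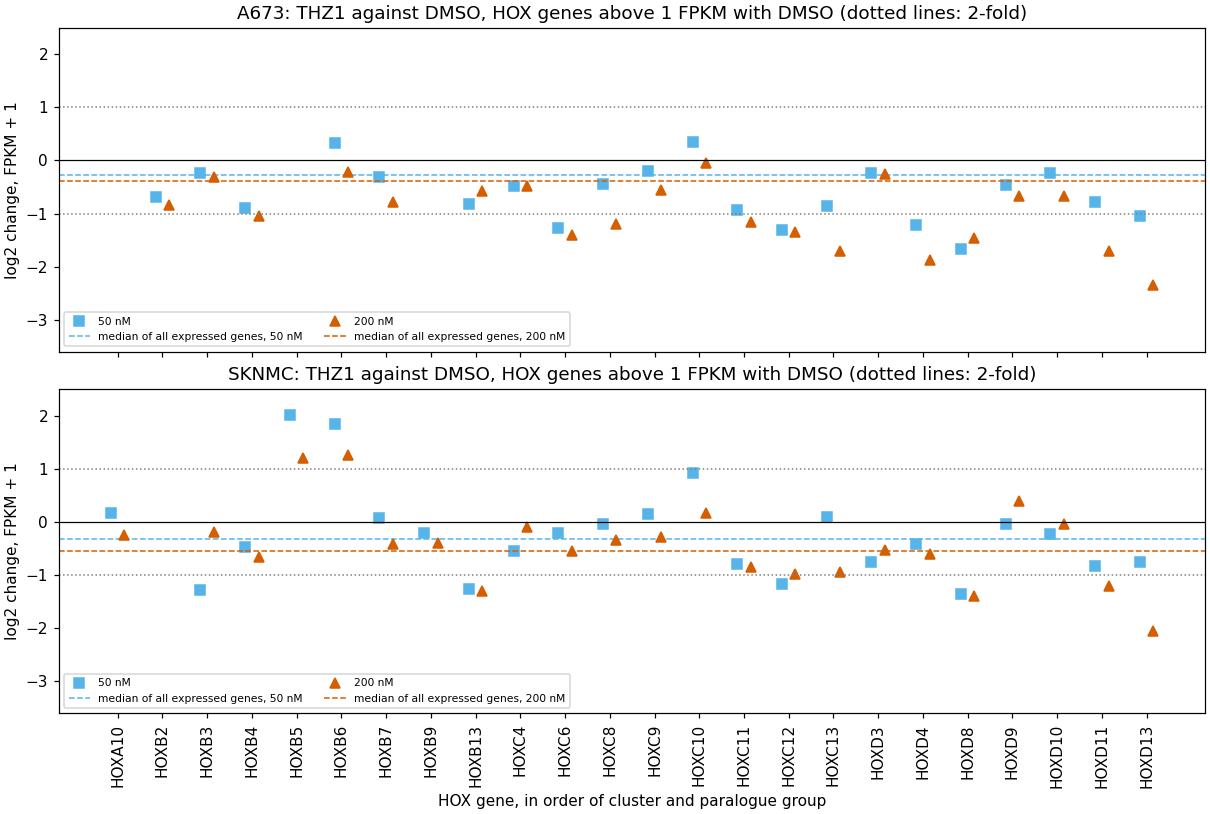
Log2 change of FPKM + 1 with 50 nM (squares) and 200 nM THZ1 (triangles) against the DMSO library, for HOX genes above 1 FPKM with DMSO in A673 (top) and SKNMC (bottom); dashed lines are the median of all expressed protein-coding genes and dotted lines mark 2-fold, with 1 library per condition and values as deposited. In A673 all triangles lie below 0, and in SKNMC only HOXB5 and HOXB6 lie above the upper 2-fold line.

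A fit over both lines, chosen after the data were seen, gave the members a test. Limma was run on log2(FPKM + 1) of the 6 libraries with line and dose as terms, over 10383 protein-coding genes above 1 FPKM in both DMSO libraries, 20 of them HOX genes. The lines stand in as the replicates, so each value is the mean change of A673 and SKNMC. A gene that responds differently in each has a larger error, but limma draws the errors of all genes together. A pass thus does not mean that the lines agree. HOXB3 at 50 nM passed (limma adjusted p = 0.0302) with changes of -0.23 in A673 and -1.27 in SKNMC. At 50 nM, 12 of the 20 members were lower at an adjusted p below 0.05 (against 38.6% of all genes tested) and 2 were higher (against 5.16%). At 200 nM, 12 were lower (against 52.9%) and 0 were higher (against 6.07%). At an unadjusted p below 0.05, 13 members passed at 200 nM, HOXC9 joining the 12, and all lay below DMSO. These were 65% of the members, against 63% of all genes tested, so the share at 200 nM was near that of all genes. At 50 nM the shares were 70% and 51.6%. HOXD13, HOXD11, HOXD8, HOXD4, HOXC6, HOXC11, HOXC12, HOXB4 and HOXB13 were lower at both doses, HOXD3, HOXC4 and HOXB3 at 50 nM only, and HOXC8, HOXC13 and HOXB7 at 200 nM only. Under the 75th percentile scaling, HOXC6, HOXD4, HOXD3, HOXC4 and HOXB3 no longer passed at 50 nM. Nor did HOXC6, HOXC8 and HOXB7 at 200 nM. The 2 higher at 50 nM were HOXB6, with log2 changes of 0.34 in A673 and 1.84 in SKNMC, and HOXC10, with 0.34 and 0.93. A fit with 1 library left out has DMSO or a dose with 1 library only, so it cannot show how stable these calls are.

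HOXD13 and HOXD11, at the end of the HOXD cluster, were lower with THZ1 in both lines. HOXD13 was at 43.2, 20.3 and 7.74 FPKM in A673 with DMSO, 50 and 200 nM, and at 92.8, 54.6 and 21.5 FPKM in SKNMC. At 200 nM this left 17.9% of the DMSO value in A673 and 23.2% in SKNMC, log2 changes of -2.34 and -2.06, the lowest of the family in each line on the scale of FPKM + 1. With a pseudocount of 0.1, HOXD4 in A673 was lower, at -3.26 against -2.46 for HOXD13. In the fit over both lines HOXD13 changed by -0.90 ± 0.148 (SE) at 50 nM and by -2.20 ± 0.148 at 200 nM, with limma adjusted p of 0.000469 and 1.12e-06. By rank, HOXD13 was number 223 from the lowest of 10819 expressed protein-coding genes in A673 and number 362 of 11551 in SKNMC. HOXD11, a gene of forearm and kidney development, was at 41.5, 23.8 and 12.01 FPKM in A673 and at 29.9, 16.3 and 12.4 FPKM in SKNMC, and the changes at 200 nM were -1.71 and -1.20. Over both lines HOXD11 changed by -1.45 ± 0.174 at 200 nM (limma adjusted p = 2.41e-05). Both genes were lower at each dose step in both lines.

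The neighbours HOXD10 and HOXD9, on the same strand within the cluster, were not called at any dose. HOXD10, active in the lumbar spinal cord and limb, was at 31.6, 26.7 and 19.4 FPKM in A673 and at 20.4, 17.4 and 19.9 FPKM in SKNMC. HOXD9 was at 27.4, 19.6 and 16.9 FPKM in A673 and at 6.21, 6.02 and 8.43 FPKM in SKNMC. In SKNMC at 200 nM, HOXD10 had a log2 change of -0.04 and HOXD9 of 0.39, next to -1.20 for HOXD11. Over both lines the change at 200 nM was -0.36 ± 0.182 for HOXD10 and -0.14 ± 0.224 for HOXD9, with limma adjusted p of 0.112 and 0.609. The listed spans of HOXD10 and HOXD11 overlap by 1206 bp on the same strand, and reads there may be shared out between them. Their summed FPKM changed by -0.53 and -1.19 in A673 and by -0.56 and -0.62 in SKNMC. The spans of HOXD8, HOXD9 and HOXD13 overlap no other listed gene.

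HOXD8, the next gene along HOXD, was at 38.3, 11.4 and 13.3 FPKM in A673 and at 8.68, 2.80 and 2.70 FPKM in SKNMC, with log2 changes of -1.67 and -1.45 in A673 and -1.35 and -1.39 in SKNMC. It was thus called lower in all 4 comparisons with DMSO as deposited, and in 3 of 4 with the 75th percentile scaling. Its changes at 50 and 200 nM lay close together in each line, as did those of HOXC12. Over both lines HOXD8 changed by -1.51 ± 0.173 at 50 nM and -1.42 ± 0.173 at 200 nM, with limma adjusted p of 4.41e-05 and 2.70e-05. At the other end of the cluster, HOXD4 was at 3.77, 1.05 and 0.305 FPKM in A673, which left 8.08% at 200 nM, a change of -1.87. In SKNMC, where it started at 1.05 FPKM, it was at 0.545 and 0.358 FPKM. HOXD3 was at 4.90, 3.98 and 3.95 FPKM in A673 and at 3.02, 1.39 and 1.78 FPKM in SKNMC and was not called. HOXD3 and HOXD4, genes of the hindbrain and neck, overlap by 2006 bp, and their sum changed by -0.68 and -0.88 in A673 and -0.79 and -0.69 in SKNMC.

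**Figure D4:**
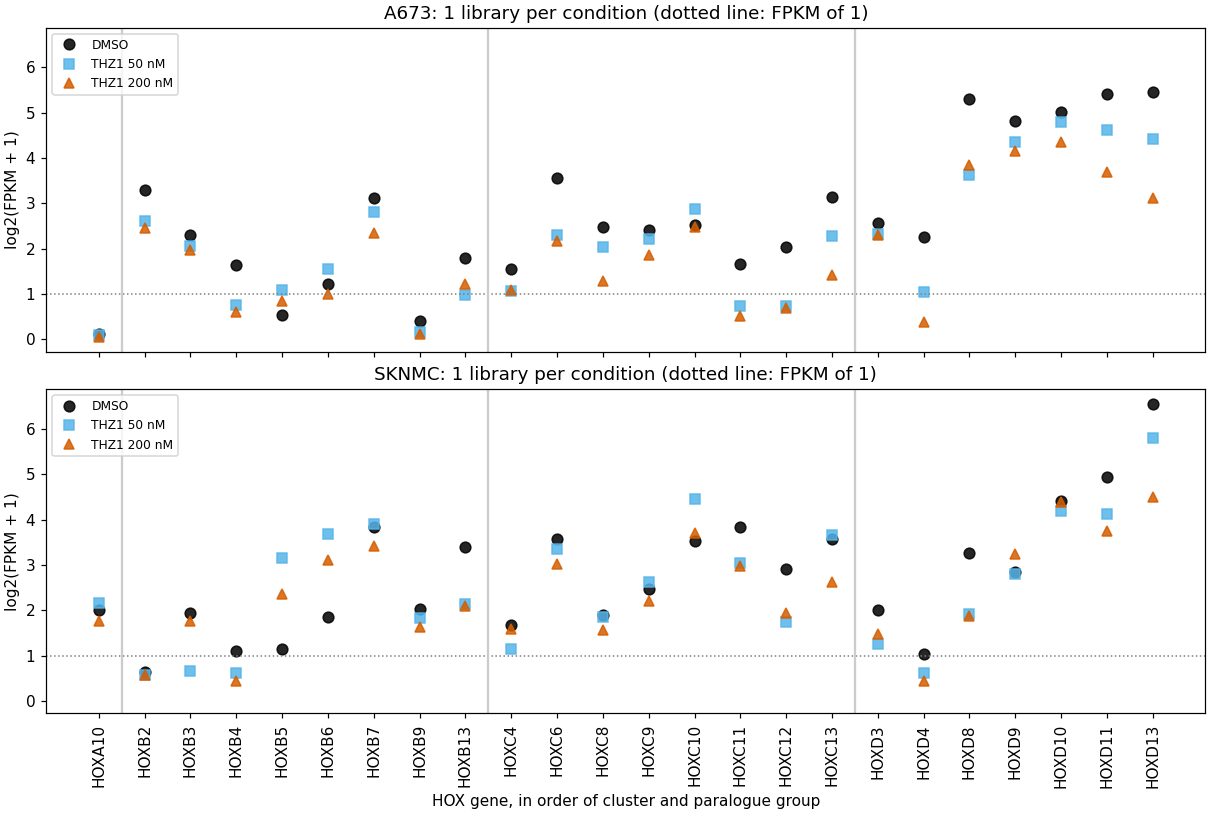
FPKM, as log2(FPKM + 1), of the 24 expressed HOX genes in the 3 libraries of A673 (top) and of SKNMC (bottom), 1 library per point; circles are DMSO, squares 50 nM and triangles 200 nM THZ1, and vertical lines part the clusters. HOXD11 and HOXD13 step down from circle to square to triangle in both lines, while the HOXB5 and HOXB6 squares and triangles of SKNMC lie above their circles.

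In HOXC, the genes 11 to 13 at the upper end of the cluster were lower in A673 at 200 nM. HOXC13, needed for hair and nails, was at 7.77, 3.87 and 1.69 FPKM in A673, a change of -1.71 at 200 nM, and at 10.9, 11.8 and 5.20 FPKM in SKNMC, where the 50 nM library lay above DMSO and the change at 200 nM was -0.94. HOXC12 was at 3.11, 0.664 and 0.612 FPKM in A673 and at 6.55, 2.35 and 2.85 FPKM in SKNMC. It was called at both doses in A673, at -1.31 and -1.35, and at 50 nM in SKNMC, at -1.17, with -0.97 at 200 nM. Its listed span overlaps that of the long intergenic RNA AC012531.23 by 2424 bp on the same strand. HOXC11 was at 2.18, 0.674 and 0.423 FPKM in A673, with -1.16 at 200 nM, and at 13.3, 7.25 and 6.94 FPKM in SKNMC, with -0.79 and -0.85. In all 3 genes the 200 nM library held less than the DMSO library in each line, and over both lines the changes at 200 nM were -1.32 ± 0.225, -1.16 ± 0.178 and -1.003 ± 0.177 for HOXC13, HOXC12 and HOXC11, with limma adjusted p of 0.000328, 0.000151 and 0.000425.

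HOXC10 and HOXC9, which help to specify lumbar and thoracic motor neurons, were not called. HOXC10 was at 4.78, 6.33 and 4.57 FPKM in A673 and at 10.6, 21.1 and 12.02 FPKM in SKNMC. Its 50 nM library was above DMSO in both lines, by 0.34 and 0.93 on the log2 scale, which in SKNMC is just under the 2-fold limit and passed it with the 75th percentile scaling. HOXC9 was at 4.35, 3.65 and 2.64 FPKM in A673 and at 4.59, 5.22 and 3.60 FPKM in SKNMC.

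Of the HOXC genes of lower number, HOXC6 was at 10.9, 3.92 and 3.48 FPKM in A673, with changes of -1.27 and -1.41. In SKNMC it started at nearly the same level and was at 10.8, 9.25 and 7.16 FPKM, with -0.21 and -0.54. HOXC8 was at 4.58, 3.12 and 1.44 FPKM in A673, with -1.20 at 200 nM, and at 2.70, 2.63 and 1.94 FPKM in SKNMC. Both were thus called in A673 and not in SKNMC, and that difference was not tested. HOXC4 was at 1.96, 1.11 and 1.12 FPKM in A673 and at 2.20, 1.21 and 2.01 FPKM in SKNMC. The listed span of HOXC6 holds the whole spans of HOXC8 and HOXC9 and 13894 bp of that of HOXC4, and itself lies wholly within the gene RP11-834C11.12. The sum of HOXC4, HOXC5 and HOXC6 with the short HOXC4 entry, which leaves out HOXC8 and HOXC9, changed by -1.12 and -1.28 in A673 and by -0.31 and -0.43 in SKNMC.

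HOXB held the members that were called higher. HOXB6 was at 2.59, 11.9 and 7.60 FPKM in SKNMC, log2 changes of 1.84 and 1.26, and HOXB5 at 1.21, 7.89 and 4.13 FPKM, changes of 2.01 and 1.22. At 50 nM they ranked 5 and 3 from the highest of 11551 expressed protein-coding genes, and at 200 nM 16 and 18. In A673, HOXB6 was at 1.33, 1.93 and 1.00 FPKM and was not called, and HOXB5, below the limit with DMSO, was at 0.460, 1.15 and 0.806 FPKM. In both lines and for both genes the 50 nM library was the highest of the 3. At 200 nM the change in SKNMC was 0.77 for HOXB6 and 0.78 for HOXB5, under the 2-fold limit, when libraries were scaled to ribosomal protein genes. Over both lines HOXB6 changed by 1.09 ± 0.304 at 50 nM and 0.52 ± 0.304 at 200 nM, with limma adjusted p of 0.0125 and 0.16. HOXB5 was not among the genes fitted.

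HOXB3, whose listed span holds those of HOXB4 and HOXB5 and 10637 bp of that of HOXB6 on the same strand, moved the other way in SKNMC at 50 nM. It was at 2.84, 0.590 and 2.38 FPKM there, a change of -1.27 and then -0.18, and at 3.90, 3.17 and 2.94 FPKM in A673. How reads in the shared span were assigned is not given in the sources used here, and its part in these values was not tested. The sum of HOXB3 to HOXB6 was 7.82, 6.95 and 5.28 FPKM in A673 and 7.79, 20.9 and 14.5 FPKM in SKNMC, where it changed by 1.32 and 0.82. HOXB4, which supports blood stem cells, was at 2.13, 0.695 and 0.527 FPKM in A673, with -1.04 at 200 nM, and at 1.15, 0.542 and 0.366 FPKM in SKNMC. So within a single stretch of HOXB, HOXB4 was lower in A673 and had changes of -0.48 and -0.65 in SKNMC, while HOXB5 and HOXB6 were higher in SKNMC.

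HOXB13, a gene of prostate and tail, lies apart from the rest of HOXB. It was at 2.49, 0.977 and 1.33 FPKM in A673, not called, and at 9.48, 3.39 and 3.25 FPKM in SKNMC, with changes of -1.26 and -1.30. PRAC1, listed inside the HOXB span next to HOXB13, was at 30.9, 38.4 and 38.2 FPKM in A673 and at 91.4, 120 and 117 FPKM in SKNMC. It was picked out after its values were seen. HOXB7 was at 7.74, 6.06 and 4.09 FPKM in A673 and at 13.3, 14.1 and 9.70 FPKM in SKNMC, and HOXB2 in A673 at 8.87, 5.15 and 4.49 FPKM, against 0.555, 0.479 and 0.495 FPKM in SKNMC. HOXB9 in SKNMC was at 3.08, 2.54 and 2.11 FPKM, and in A673 at 0.323, 0.116 and 0.0868 FPKM. None of these 3 was called. The listed span of HOXB7 holds those of HOXB8 and HOXB9 on the same strand, and reads there may be shared out between them. The sum of HOXB7 to HOXB9 changed by -0.38 and -0.80 in A673 and by -0.01 and -0.40 in SKNMC. The one HOXA gene, HOXA10 of the uterus and male tract, was at 3.004, 3.48 and 2.40 FPKM in SKNMC and below 0.1 FPKM in A673.

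Between the doses, which does not use the DMSO library, HOXD13 was lower at 200 than at 50 nM in both lines, with log2 changes of -1.28 and -1.30. In A673 it was the only 1 of 18 members called lower (5.56%, against 8.02% of protein-coding genes above 1 FPKM at 50 nM). In SKNMC, HOXC13 joined it, with -1.04, so that 2 of 20 were called (10%, against 9.28%). These shares are near those of all genes. No member above 1 FPKM at 50 nM was called higher at 200 nM, where 0.108% and 0.333% of all genes were. HOXB3 in SKNMC, under that limit at 50 nM, was 1.09 higher at 200 nM.

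Summed over a cluster, HOXD was at 55.99% and 38.7% of its DMSO sum in A673 and at 60.9% and 41.5% in SKNMC. HOXC was at 59.5% and 40.6% in A673, whereas in SKNMC it stood at 98.1% and 68.2%. HOXB was at 70.0% and 56.1% in A673, and at 120% and 88.6% in SKNMC. With this the share of HOXD in the HOX sum of SKNMC went from 61.7% to 48.2% and 46.9%, and in A673 it was 73.7%, 71.1% and 69.8%.

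**Figure D5:**
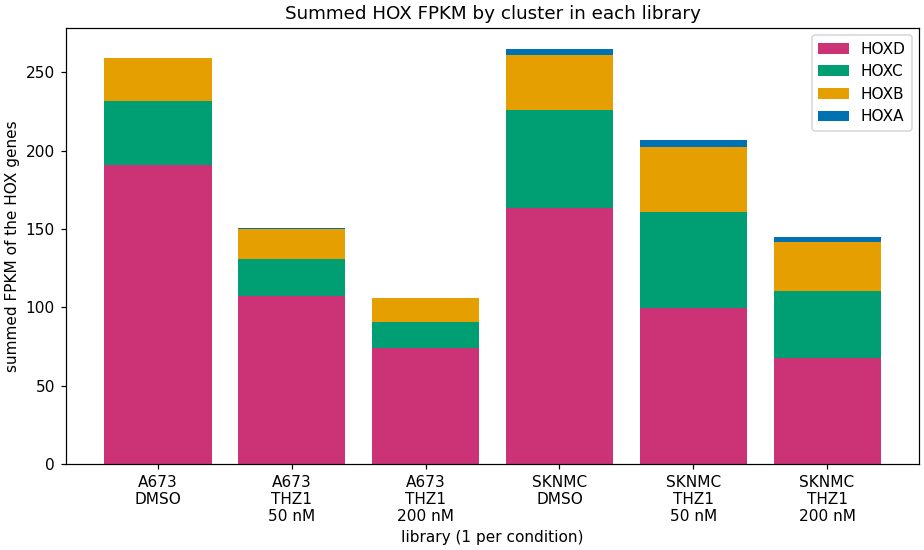
Summed FPKM of the HOX genes in each of the 6 libraries, stacked by cluster, with 1 library per bar. The HOXD part shrinks with dose in both lines, from 191 to 73.9 FPKM in A673 and from 164 to 67.8 FPKM in SKNMC, and HOXA is hardly visible.

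The TALE genes, whose proteins bind DNA with HOX proteins, numbered 9, with 7 expressed in each line. In A673, 3 were lower at 50 nM and 2 at 200 nM, where 15.8% and 25.4% of all expressed protein-coding genes were, and in SKNMC 2 and 1, where 15.6% and 27.6% were. None was higher. The shares at 50 nM were above those of all genes, that of A673 at 200 nM was near and that of SKNMC at 200 nM below, each on 7 genes. Their median log2 changes at 50 and 200 nM were -0.60 and -0.99 in A673 and -0.59 and -0.77 in SKNMC. Those of all expressed genes were higher, at -0.27, -0.39, -0.32 and -0.55. MEIS1 was at 9.72, 2.29 and 1.82 FPKM in A673 and at 54.7, 21.2 and 18.7 FPKM in SKNMC, called at both doses in both lines. PBX2 was at 24.9, 7.48 and 12.1 FPKM in A673 and at 42.5, 20.0 and 23.4 FPKM in SKNMC, lower at 50 nM in both lines.

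Of 26 genes known to control HOX clusters, 21 were expressed in A673 and 22 in SKNMC. At 50 nM, 7 and 4 of them were lower (against 15.8% and 15.6% of all genes), at 200 nM 11 and 10 (against 25.4% and 27.6%), and 0 were higher. The share of SKNMC at 50 nM was near that of all genes, and the other 3 were above. Genes on both sides of HOX control were lower at 200 nM in both lines. Of Polycomb, which keeps HOX genes silent, these included EED, RNF2, CBX2 and CBX8, and of the genes that keep them active, MEN1, RBBP5, KDM6A and the retinoic acid receptor RARA. EED was at 22.2, 14.8 and 4.44 FPKM in A673 and at 27.2, 22.5 and 7.33 FPKM in SKNMC, and RARA at 8.77, 2.41 and 1.71 FPKM and at 30.3, 12.8 and 7.75 FPKM. EZH2, the methyltransferase of Polycomb, was at 41.4, 47.1 and 25.9 FPKM and at 84.3, 78.3 and 53.3 FPKM, and was not called. WDR5 and BMI1, which with EZH2 had the highest mean over both DMSO libraries, had changes at 200 nM of -0.86 and -0.57 in A673 and -0.95 and -0.65 in SKNMC. CDX1 and CDX4, activators of trunk HOX genes, were listed at 0 in all libraries.

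Among the genes that flank the clusters, 3 on each side, and those listed inside them, 27 in all, 19 were expressed in A673 and 20 in SKNMC. In A673, 1 was lower at 50 nM and 3 at 200 nM, in SKNMC 2 and 5, and 0 were higher. The share of SKNMC at 200 nM was near that of all genes (27.6%). The others lay below theirs (15.8% and 25.4% in A673, 15.6% in SKNMC at 50 nM), on 19 or 20 genes each. The 3 with the highest level, HNRNPA1, ATP5G2 and ATP5G3, had log2 changes between -0.34 and 0.35. The 3 called at 200 nM in both lines were EVX2, SNX11 and NFE2L2. EVX2, a homeobox gene 8977 bp beyond HOXD13, was at 1.85, 0.650 and 0.333 FPKM in A673 and at 3.34, 1.28 and 1.02 FPKM in SKNMC, a change of -1.10 at 200 nM in each. SNX11, a gene of endosomal sorting 405451 bp from HOXB, changed by -1.22 and -1.93. NFE2L2, the oxidative stress factor NRF2, lies 1036630 bp from HOXD and changed by -1.52 and -2.25.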

How the data were processed

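RNA-seq values of 6 libraries were analysed, with conditions taken from the labels (SKNMC is spelled SKMNC in some). The authors prepared TruSeq libraries from total RNA, ran them on a HiSeq2000 as 100-bp read pairs, used STAR and Ensembl 75 for alignment to hg19 and measured FPKM with StringTie. The submitters' processing notes name Cufflinks beside STAR. The deposited FPKM table holds 1 column per library, though its title speaks of averages. The authors also deposited 4 columns of log2 fold changes of THZ1 against DMSO, which were not used. Read counts and depth are not given, and neither is the use of strand in counting, nor how reads in overlapping genes were assigned.

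Genes above 1 FPKM in the reference library (for A673 against SKNMC, in either) were compared as log2((FPKM + 1)/(FPKM + 1)), and 2-fold was called, beside all protein-coding genes, with Python 3.11.15, pandas 2.3.3 and numpy 2.4.6. Within a line there is 1 library per condition, so no SD or interval is given. The dose effect over both lines was fitted with limma 3.58.1 in R 4.3.3 (line and dose as terms, 6 libraries, 2 residual degrees of freedom, trended prior, Benjamini-Hochberg over all genes tested). This fit was chosen after the data were seen. With no replicate cultures within a line, its error rests on how the lines differ in their change. Named were all HOX genes above 1 FPKM with DMSO, and of the other lists the 3 highest genes and those called the same way in both lines at 200 nM; a few genes that this rule names are not reported here. The members and lists were chosen with earlier results of these data known. Alternatives were another pseudocount, 3 scalings, filters of 0.5, 2 and 5 FPKM or none, a 1.5-fold limit, leaving out the highest member, and overlapping members summed. Homeoboxes and coding sequences come from GRCh37 with the GENCODE annotation, not from proteins, and promoter windows from RefSeq on GRCh38, matched to GRCh37 by their sequence.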

Additional observations from a re-analysis of the deposited data

How the results depend on the processing

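Within a line no library could be left out. In the fit over both lines, leaving out 1 library leaves DMSO or a dose with 1 library, so no counts of such fits are given. In the fit of all 6 libraries, 7 members were lower at 50 nM with the 75th percentile scaling, and 1 was higher there with ribosomal scaling. Of the 8 members above 5 FPKM, 4 and 6 were lower at 50 and 200 nM and 0 higher, against 2946 and 4240 lower of 7907 genes. Of all genes in the fit, 4007 were lower and 536 higher at 50 nM and 5494 and 630 at 200 nM, against 2607 and 1889 and 3386 and 2552 with the 75th percentile scaling and 6067 and 99 and 8180 and 34 with ribosomal scaling. Counts below with no share of all genes beside them show only how the calls of the members moved, since that share can move with the setting too. With a pseudocount of 0.1, 8 members were lower in A673 at 50 nM and 8 in SKNMC at 200 nM, and 4 in A673 from 50 to 200 nM. Scaled to the 75th percentile of expressed genes, the member medians were -0.45 and -0.53 in A673 and changed sign to 0.0085 and 0.011 in SKNMC. In SKNMC 1 member was then lower at 200 nM, against 13.2% of all genes, and 1 from 50 to 200 nM. Scaled to ribosomal protein genes, 10 members were lower in A673 at 50 nM, 3 there from 50 to 200 nM, and 7 and 8 in SKNMC, where 23.9% of all genes in A673 at 50 nM and 26.5% and 50.9% in SKNMC were. The SKNMC medians were then -0.54 and -0.77, 0 members were higher in SKNMC at 200 nM, and 7 were higher in A673 than in SKNMC. With the limit at 5 FPKM, 9 and 12 members were expressed, 3 and 5 were lower in A673 and 0 higher in SKNMC at either dose, with medians of -1.41 in A673 at 200 nM and of -0.49 and -0.89 in SKNMC. Without a filter the medians were -0.22 and -0.27 in A673 and -0.18 in SKNMC at 200 nM. At 1.5-fold, 11 members were lower in A673 at 50 nM and 8 and 9 in SKNMC. From 50 to 200 nM, 5 and 4 were lower, and 10 were higher in SKNMC than in A673. With overlapping members summed, an alternative chosen after seeing the data, 3 were lower in A673 at 50 nM, and 1 and 0 were higher in SKNMC, with medians of -0.36 and -0.66. Without the highest member, HOXD13, the HOXD share was 41.0% and 29.6% in SKNMC with DMSO and 50 nM. After scaling to a common sum, all 22 summary values stayed within 1.5 times the main value. The sums of the listed FPKM differ little between libraries, so this scaling could hardly move them. With the 75th percentile scaling 15 stayed within that limit, 5 moved further and 2 medians changed sign. With ribosomal scaling 11 stayed and 9 moved further. Of the changes of single genes, 317 of 352 kept their call, 25 passed 2-fold and 10 fell under it, and none changed sign past it. The cause of these shifts was not tested beyond what each alternative sets. FPKM carries no depth, so low members, such as HOXB5 with DMSO, have an unknown counting error.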

Other observations

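Long intergenic RNAs listed within 50 kb of a HOX cluster were few and low. Of 12, 1 was expressed in A673 with DMSO and 4 in SKNMC. In HOXB of SKNMC, RP11-357H14.17, which lies between HOXB9 and HOXB13, was at 7.36, 0.988 and 1.12 FPKM with DMSO, 50 nM and 200 nM THZ1, log2 changes of -2.07 and -1.98. It was below 0.1 FPKM in the 3 A673 libraries, where HOXB9 was also below 1 FPKM. CTD-2377D24.6, in the same stretch, was at 1.56, 0.348 and 0.972 FPKM in SKNMC and below 0.1 FPKM in A673. In HOXC, AC012531.25 was at 0.874, 0.900 and 1.92 FPKM in SKNMC, the highest of its 3 libraries being 200 nM, and its span overlaps those of HOXC4 and HOXC6. AC009336.24, in HOXD, was at 1.18, 0.619 and 0.764 FPKM in A673 and at 1.13, 0.422 and 0.674 FPKM in SKNMC. These RNAs were picked out after their values were seen, and each value rests on 1 library.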
